A study of Mus musculus with 53 samples.

Results

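Whole genome doubling leaves a tumour cell with extra copies of every chromosome, and in cultured and human tumour cells it is known to be followed by chromosome losses and by a greater need for the machinery of mitosis. YM-155 is a compound reported to lower survivin, the product of Birc5, which guards the attachment of chromosomes to the spindle and blocks caspases. The comparison described here sets WGD+ tumours against WGD- tumours in A/J mice that had all received YM-155, and so describes what separates the doubled from the undoubled form of the tumour under the drug. It rests on 6 of the 53 libraries of the series, 3 of WGD+ and 3 of WGD- tumours, chosen by the names of their columns in the deposited table of the YM-155 experiment.

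Both groups came from TA3Hauschka, a line of mouse mammary tumour cells of which a WGD+ and a WGD- form had been engineered. The cells grew in fat pads of female A/J mice that were 6 weeks old at injection, a strain with an intact immune system. Both groups received YM-155 for 14 days, and each library is bulk RNA of a whole tumour with its host cells. Vehicle tumours of the same host are used for comparison, and so are YM-155 and vehicle tumours of an immunodeficient host called NSG in the titles. That host carries scid and Il2rg mutations and human cytokine transgenes. These hosts were also 6 weeks old and were treated for 14 days. A/J tumours of other experiments are used as well, under an isotype antibody for 14 days or collected on day 14 of a time course. Their hosts were 6 weeks old too, and each group has 3 libraries. How the WGD+ form was made and whether either form is a single clone are not stated in the sources used here, nor is it stated that each library is a separate mouse, so p-values cover the spread among these libraries, which may be technical. The genotype field of the labels reads WGD+ for the 3 libraries titled WGD- here, and disagrees with the title in 12 of the 24 libraries of the experiment. Groups were taken from the titles throughout.

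The 6 libraries held 5.11 to 7.75 M assigned reads, where M stands for mega. Levels are the deposited log2(CPM + 1) values, in which CPM is the scaled count per M reads, and a change is the WGD+ mean minus the WGD- mean on that scale, and it is smaller than the log2 ratio of CPM for genes near or below 1 CPM. The defining markers of epithelial tumour cells were present in every library, with a sum of 1542 to 1638 CPM in WGD+ and 1791 to 2870 CPM in WGD- tumours. WGD+ replicate 2 and WGD- replicate 1 are among 4 libraries of the experiment that correlate least with the others, and replicate 2 of either group holds more RNA of interferon-induced genes than the rest, so results were also computed without such libraries.

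Of 13826 genes tested, 234 changed between WGD+ and WGD- tumours (1.69%, limma adjusted p under 0.05), 50 of them higher (0.362%) and 184 lower (1.33%) in WGD+. The groups did not overlap in 232 of these 234 genes, against 16.9% of all genes tested. Rises had a median of 1.12 and falls of -0.86, and 34 rises and 75 falls were of at least 1. The falls in WGD+ were led by the lysophosphatidic acid receptor gene Lpar3, the protease gene Pappa, the matrix gene Matn4 and the laminin receptor gene Itga7. The largest called rise was that of the gene model A530065N20Rik, and gene models left aside the rises were led by the retinol receptor gene Stra6, the cystine transporter gene Slc7a11 and Mfge8, which marks dying cells for uptake. The count depends on single libraries and on how the spread is estimated: leaving out WGD- replicate 2 gave 79 calls, leaving out WGD- replicate 1 gave 139, and leaving out WGD+ replicate 3 gave 151. Fitting the 6 libraries alone gave 20. Without the 4 libraries that stand apart the count was 357, which holds 146 of the 234 genes. Without WGD+ replicate 2 it was 237, which holds 128 of the 234. Without A/J WGD- vehicle replicate 2, which bears on the spread alone, it was 425. Of the 234 genes, 59 were called with each of the 6 libraries left out in turn.

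The promoters of 4 genes whose changes are described next are shown, as the 250 bases before the start of the gene in RefSeq on GRCm38.p6, read 5′ to 3′ along the gene's own strand. Slc7a11 and Lpar3 are shown as the transporter that rose and the receptor that fell, and Matn4 and Rbpjl because these neighbours on chromosome 2 face each other, overlap and fell together. Capitals mark letters that match one of 5 motifs searched on both strands.
Slc7a11, chr3:50443614-50443863, minus strand: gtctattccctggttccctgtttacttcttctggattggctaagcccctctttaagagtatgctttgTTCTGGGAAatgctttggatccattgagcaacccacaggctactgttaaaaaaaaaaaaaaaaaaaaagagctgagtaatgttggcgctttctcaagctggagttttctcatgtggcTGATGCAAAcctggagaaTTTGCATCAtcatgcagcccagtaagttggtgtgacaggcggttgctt
Lpar3, chr3:146220711-146220960, plus strand: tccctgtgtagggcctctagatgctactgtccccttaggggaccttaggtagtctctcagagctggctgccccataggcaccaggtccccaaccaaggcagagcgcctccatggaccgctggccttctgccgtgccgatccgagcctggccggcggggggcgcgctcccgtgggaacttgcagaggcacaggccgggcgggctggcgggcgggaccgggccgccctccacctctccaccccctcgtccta
Matn4, chr2:164405161-164405410, minus strand: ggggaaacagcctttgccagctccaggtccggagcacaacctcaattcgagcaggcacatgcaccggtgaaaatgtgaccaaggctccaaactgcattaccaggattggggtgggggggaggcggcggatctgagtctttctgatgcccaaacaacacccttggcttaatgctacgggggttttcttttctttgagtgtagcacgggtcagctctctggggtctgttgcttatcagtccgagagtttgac
Rbpjl, chr2:164402944-164403193, plus strand: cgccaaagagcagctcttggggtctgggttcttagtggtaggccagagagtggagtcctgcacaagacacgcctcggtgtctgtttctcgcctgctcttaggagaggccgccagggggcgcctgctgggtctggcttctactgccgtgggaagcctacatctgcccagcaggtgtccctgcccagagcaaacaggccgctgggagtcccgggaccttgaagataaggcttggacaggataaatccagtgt

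In the Slc7a11 window the script found TTCNNNGAA, the motif of Stat factors, at 1 place, and TGATGNAAN, the amino acid response motif bound by Atf4 with its partners, at 2 places, once on either strand. The amino acid response motif was added after this sequence had been seen. Among 32851 promoters of this length the Stat motif was found in 7.02% and the amino acid response motif in 3.44%. The other motifs were GAAANNGAA, the core of the interferon response element, found in 7.13%, TGACNNNGC, the antioxidant response motif of Nrf2, found in 10.2%, and TTTGAA, the cell cycle homology motif, found in 16% of promoters. None of the 5 was in the windows shown for Lpar3, Matn4 and Rbpjl. RefSeq has a second start of Matn4, whose window (chr2:164404819-164405068, not shown) holds the amino acid response motif at 1 place. Of 47 called genes that are named or were looked at, 33 had a promoter in the RefSeq table, with 49 windows. Of these windows, 6 held the interferon core, 5 the Stat motif and 4 the cell cycle motif. The amino acid response motif was in 3 and the antioxidant response motif in 1. The 3 include the Slc7a11 window that led to that motif being added. A match is a run of letters and not a measured binding site.

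Transport and redox genes went both ways. Slc7a11 (chr3:49892526-50443614) encodes the exchanger that brings cystine into the cell for glutathione synthesis. It was at 6.67, 5.59 and 6.74 in WGD+ tumours and at 4.78, 4.41 and 4.66 in WGD- tumours, so that even the lowest WGD+ library, replicate 2, lay above every WGD- library. The change was 1.72 (SE 0.27, limma adjusted p = 0.00136), and it was called with each library left out. Its membrane partner Slc3a2, named here after its values were seen, was at 8.77, 8.12 and 9.08 in WGD+ against 8.54, 8.23 and 8.82 in WGD- tumours (0.13, adjusted p = 0.834). Of the 13 genes of the Nrf2 and glutathione list, Slc7a11 rose, 1 fell and 11 did not pass, with a median of -0.12. Of all genes tested, 1.69% were called. The gene that fell was Nqo1, a quinone reductase and a standard target of Nrf2, at 4.89, 4.02 and 4.74 in WGD+ against 5.91, 5.37 and 5.21 in WGD- tumours (-0.94, adjusted p = 0.0383). The call of Nqo1 ended without the libraries that stand apart, where the change was -0.48 (adjusted p = 0.28), and under quantile scaling (adjusted p = 0.0557). None of the 13 tested genes of the Atf4 and amino acid synthesis list passed, with a median of 0.05, and the nearest was the serine synthesis gene Phgdh (0.36, adjusted p = 0.246). Slc16a3, which exports lactate, fell by 2.0 (SE 0.29, adjusted p = 0.00086). It was at 4.52, 5.55 and 5.69 in WGD+ against 6.91, 7.31 and 7.53 in WGD- tumours. Atp2c2, a calcium and manganese pump of the Golgi, fell by 2.40 (adjusted p = 0.00139). Prodh, which begins the breakdown of proline, rose by 1.06 (adjusted p = 0.0106), a call that held in 4 of 6 leave-outs.

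Of the named genes, several encode secreted or matrix proteins. The fibroblast and matrix list itself had 0 calls of 14 genes tested, where 1.69% of all genes were called. Its median was 0.59, and its nearest member was the fibronectin gene Fn1 (1.35, limma adjusted p = 0.177). Mfge8 (chr7:79133768-79149060), a glycoprotein that bridges phosphatidylserine on dying cells to integrins on phagocytes, was at 9.77, 9.38 and 9.56 in WGD+ and at 7.81, 8.09 and 7.68 in WGD- tumours. All 3 WGD+ libraries lay more than 1 unit above all WGD- libraries, and the change of 1.71 (SE 0.17, limma adjusted p = 4.89e-06) was called with each library left out. Pappa (chr4:65124174-65357509), a metalloprotease that frees insulin-like growth factors from their binding proteins, was at 1.74, 0.25 and 2.45 in WGD+ against 5.19, 4.17 and 5.09 in WGD- tumours. It fell by 3.33 (SE 0.46, adjusted p = 0.00036). Matn4 (chr2:164389393-164405160), a matrilin of the extracellular matrix, was at 3.13, 4.56 and 4.55 in WGD+ and at 7.25, 6.80 and 7.34 in WGD- tumours, a fall of 3.05 (SE 0.40, adjusted p = 0.00036). Spint1, an inhibitor of serine proteases at epithelial surfaces, fell by 2.06 (adjusted p = 0.00822), and Krtdap, a secreted protein of keratinocytes, by 2.19 (adjusted p = 0.038). Krtdap was listed at 0 in WGD+ replicate 2, and its call held in 2 of 6 leave-outs, that of Spint1 in 4.

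Receptor and signalling genes were led by Lpar3 (chr3:146220963-146286186), a receptor for lysophosphatidic acid. Lpar3 was at 0.20, 0.83 and 0.88 in WGD+ tumours, which rests on 1, 4 and 6 reads, and at 3.96, 3.69 and 4.37 in WGD- tumours. It fell by 3.37 (SE 0.37, limma adjusted p = 1.69e-05). Itga7 (chr10:128933818-128958282), the alpha chain of a laminin receptor, was at 4.31, 5.23 and 5.08 in WGD+ against 7.59, 8.01 and 7.37 in WGD- tumours and fell by 2.79 (SE 0.41, adjusted p = 0.00144). It was the sole call among 13 integrin genes, whose median change was 0.02, where 1.69% of all genes tested were called. The chains that came next, chosen by that place, did not pass, with a difference of 1.04 for Itgb6 (adjusted p = 0.071) and of 1.01 for Itga2 (adjusted p = 0.108). Tnik, a kinase of the Wnt pathway, rose by 1.56 (adjusted p = 0.0169), and Plcl2, a phospholipase relative without catalytic activity, by 1.35 (adjusted p = 0.0106). Tnik was called in 2 of 6 leave-outs, and Plcl2 in 6. Plcl2 was at 4.04, 5.70 and 4.48 in WGD+ against 3.35, 3.58 and 3.22 in WGD- tumours, with WGD+ replicate 2 well above the rest.

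Of the named genes, Sp6, Rbpjl, Zfp57 and Osr1 encode transcription factors. Sp6 (chr11:97013394-97024734), a zinc finger factor of epithelial appendages, was at 1.02, 2.84 and 1.34 in WGD+ and at 4.43, 4.67 and 4.32 in WGD- tumours, a fall of 2.74 (SE 0.37, limma adjusted p = 0.000256). The gene model Gm11532 on the opposite strand overlaps Sp6 and fell by 2.56, and it is named here after its values were seen. Rbpjl (chr2:164403141-164415448), a relative of the Notch effector Rbpj, was at 1.12, 1.23 and 2.21 in WGD+ and at 3.87, 3.68 and 4.53 in WGD- tumours, a fall of 2.51 (SE 0.32, adjusted p = 0.000112). It overlaps the start of Matn4 on the opposite strand. The libraries were made with a stranded kit, but whether the counting used the strand is not given in the sources used here, so reads of Sp6 and Gm11532, and of Matn4 and Rbpjl, cannot be told apart. Zfp57, which keeps imprinted regions methylated, and Osr1, a factor of mesenchyme, rose by 1.20 (adjusted p = 0.0205) and 1.12 (adjusted p = 0.0488), calls that held in 4 and 2 of 6 leave-outs. The largest called rise of all was that of the gene model A530065N20Rik, at 3.76, 4.09 and 3.69 in WGD+ against 0.41, 1.07 and 1.23 in WGD- tumours (2.94, SE 0.30, adjusted p = 4.89e-06).

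**Figure D1:**
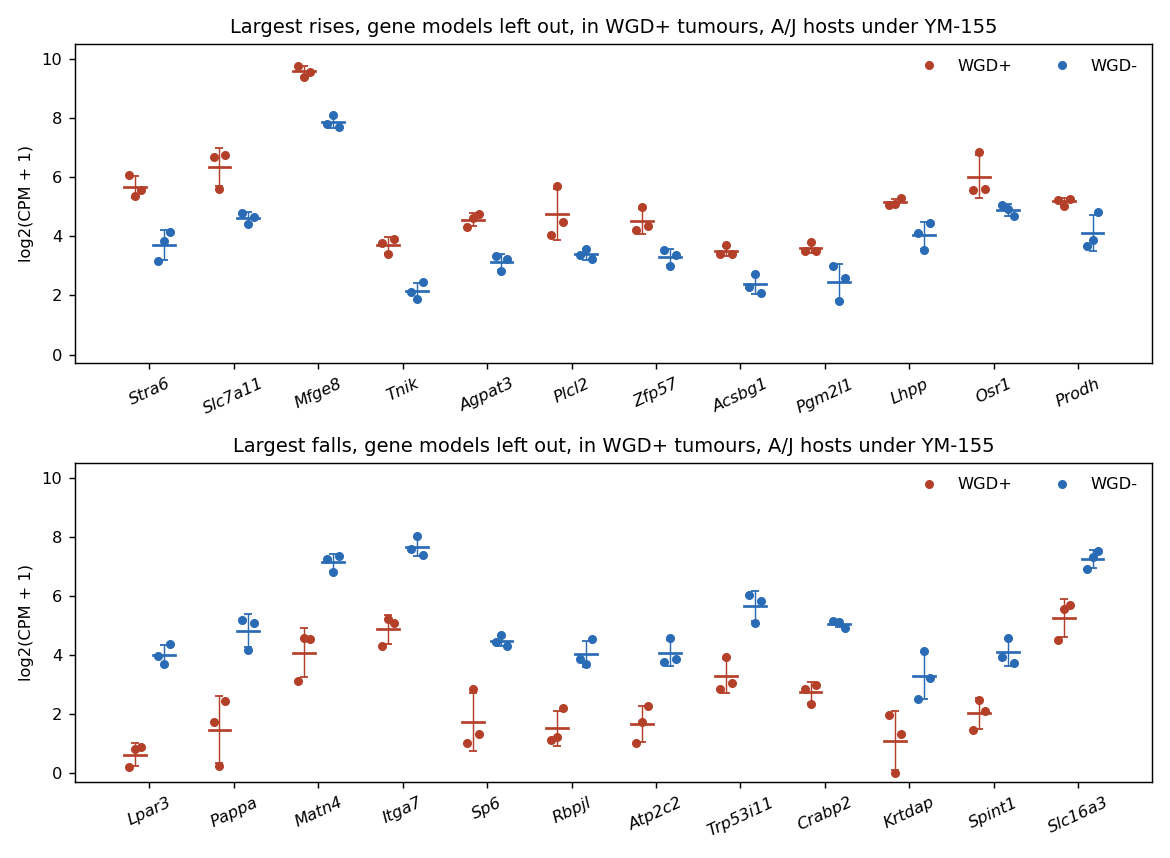
Level of the 12 genes with the largest called rises (upper plot) and the 12 with the largest called falls (lower plot) that meet the naming rule, which passes over gene models such as A530065N20Rik and Gm11532, as log2(CPM + 1) in each of 3 WGD+ (red, left of each pair) and 3 WGD- libraries (blue); lines are means and bars SD. No pair of groups overlaps, as the naming rule requires, and Lpar3 lies at 0.20 to 0.88 in WGD+ against 3.69 to 4.37 in WGD- tumours.

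Of genes of lipid handling, Agpat3, an acyltransferase of phospholipid synthesis, rose by 1.43 (limma adjusted p = 0.00508) and Acsbg1, which activates long fatty acids, by 1.13 (adjusted p = 0.0445). Agpat3 was called in 6 of 6 leave-outs, and Acsbg1 in 0. The rises of Pgm2l1, which makes a sugar bisphosphate, and of the phosphatase gene Lhpp were 1.13 (adjusted p = 0.0378) and 1.12 (adjusted p = 0.0109), and these calls held in 1 and 5 leave-outs. In the retinoid pathway, retinol is taken up by Stra6, stored back from retinaldehyde by Dhrs3, and its acid is carried to nuclear receptors by Crabp2. Stra6 (chr9:58063788-58153996) was at 6.08, 5.37 and 5.55 in WGD+ and at 3.15, 3.83 and 4.15 in WGD- tumours, a rise of 1.95 (SE 0.45, limma adjusted p = 0.0291). Crabp2 (chr3:87948666-87953376) was at 2.86, 2.34 and 3.0 in WGD+ against 5.16, 5.10 and 4.93 in WGD- tumours, a fall of 2.33 (SE 0.39, adjusted p = 0.00261). Dhrs3 rose by 1.38 (adjusted p = 0.0495) and its call held in 0 of 6 leave-outs, while that of Stra6 held in 2 and that of Crabp2 in 6. Stra6 also missed the threshold by voom (adjusted p = 0.0578) and without the libraries that stand apart (adjusted p = 0.104). The other 10 of the 13 retinoid genes did not pass, where 1.69% of all genes tested were called. The list's median was 0.25, against -0.0133 over all genes.

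Cholesterol synthesis genes had a change below 0 in 11 of 11 genes tested, where 7169 of all 13826 genes did, with a median change of -0.50 against -0.0133 over all genes. Of the 11, 2 passed, and 1.33% of all genes were called lower. Fdft1, squalene synthase, was at 6.19, 6.33 and 5.61 in WGD+ against 6.92, 7.20 and 6.56 in WGD- tumours (-0.84, SE 0.20, limma adjusted p = 0.0316). Lss, which closes the sterol ring, was at 5.80, 5.38 and 5.53 in WGD+ against 6.28, 6.62 and 6.02 in WGD- tumours (-0.73, SE 0.19, adjusted p = 0.047). Next by p came Dhcr7, the last enzyme of the pathway, at -0.95 (adjusted p = 0.0904). Both calls ended with no filter on low values, with adjusted p of 0.0575 for Fdft1 and 0.0741 for Lss, and under quantile scaling, with adjusted p of 0.0514 for Fdft1 and 0.0588 for Lss, and Lss also without the libraries that stand apart (adjusted p = 0.0992). Genes of hypoxia and glycolysis were lower in 15 of 15 tested, with a median of -0.39, and p53 targets in 14 of 14, with a median of -0.38, and none passed in either list. Their nearest members were the pyruvate dehydrogenase kinase gene Pdk1 (-0.92, adjusted p = 0.0798) and the RNA-binding protein gene Zmat3 (-0.54, adjusted p = 0.223).

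The falls were not spread evenly over the genome. Chromosomes 2, 5 and 14 hold 17.3% of the genes tested and 59.8% of the genes that fell, 110 of 184, with 71 on chromosome 2, 23 on chromosome 5 and 16 on chromosome 14. Of the 50 genes that rose, 1 lies on these chromosomes. On chromosome 2, 6.73% of 1055 tested genes fell, against 0.644% of genes on the 17 other chromosomes. The median change was -0.27 on chromosome 2, -0.19 on chromosome 5 and -0.18 on chromosome 14, and between -0.07 and 0.09 on each other chromosome, and 75.8% of chromosome 2 genes had a change below 0. This pattern was looked for after the calls had been seen, and it has no test over genes. DNA copy number was not measured in these data.

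**Figure D2:**
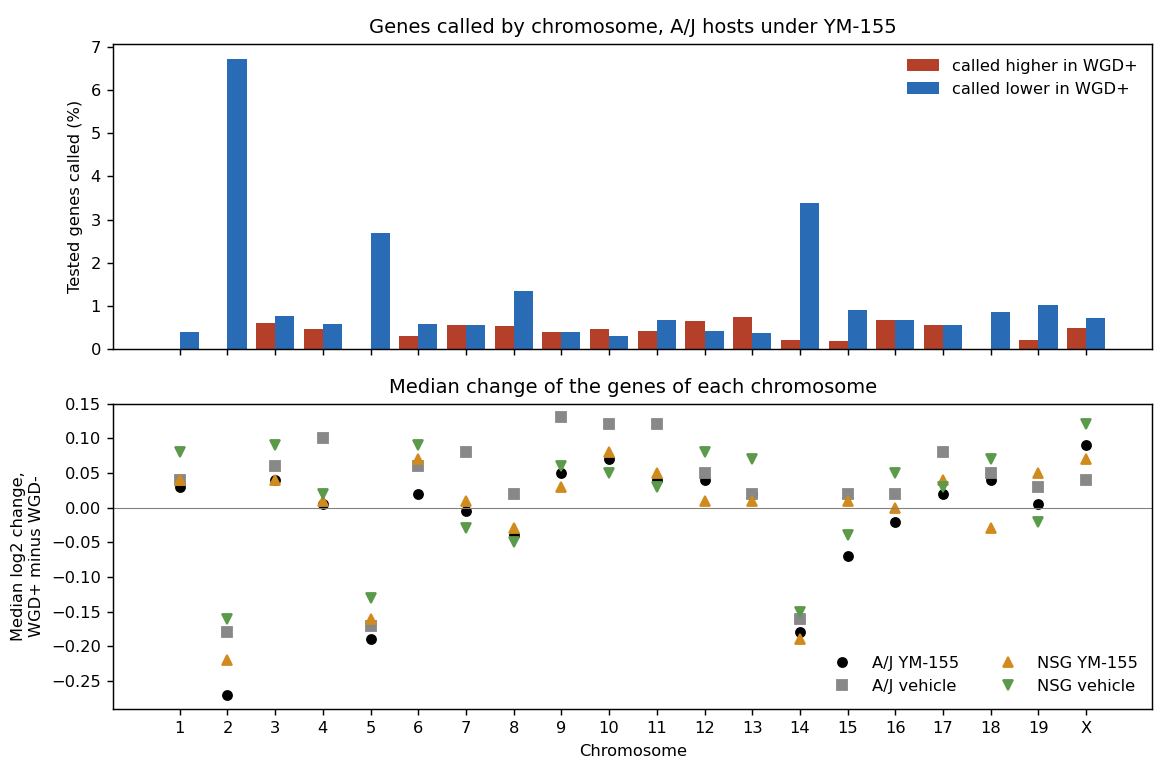
Upper plot: percent of the tested genes of each chromosome called higher (red) or lower (blue) in WGD+ tumours of A/J mice under YM-155. Lower plot: median log2 change of all tested genes of each chromosome in the 4 WGD comparisons of the experiment. Chromosomes 2, 5 and 14 have medians of -0.27, -0.19 and -0.18 in A/J YM-155 tumours.

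The genes that fell on these chromosomes mostly fell by little. Their calls had a median of -0.74, and 29 of 110 were of at least 1, whereas the falls on other chromosomes had a median of -1.21, with 45 of at least 1 and 28 under 1. Psma7, a subunit of the proteasome on chromosome 2 named here after its values were seen, was at 8.28, 8.55 and 8.18 in WGD+ against 9.24, 9.34 and 9.15 in WGD- tumours (-0.91, SE 0.15, limma adjusted p = 0.00187). Emc4, of the complex that inserts membrane proteins, also chosen after its values were seen, was at 6.14, 6.03 and 6.38 in WGD+ against 6.94, 7.10 and 7.05 in WGD- tumours (-0.85, SE 0.15, adjusted p = 0.00261). Of the large falls, Matn4, Rbpjl, Trp53i11 and Spint1 lie on chromosome 2. Within chromosome 2 the 707 genes that start from 70 Mb onward had a median change of -0.36 and 64 falls, and the 348 genes before it -0.09 and 7 falls. The cut at 70 Mb was set with the values known, so this contrast describes the chromosome and does not test it. In steps of 10 Mb, the medians beyond 70 Mb ran from -0.28 to -0.48, the lowest being that of 53 genes between 130 and 140 Mb.

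Each library was then given one value for each chromosome, the median over genes of the deviation from the mean of the 6 libraries, less the same over genes of the other 17 chromosomes. For chromosome 2 this value was -0.12, -0.15 and -0.14 in WGD+ and 0.13, 0.14 and 0.14 in WGD- tumours. For chromosome 5 it was -0.12, -0.12 and -0.09 in WGD+ against 0.08, 0.11 and 0.12 in WGD- tumours, and for chromosome 14 it was -0.08, -0.12 and -0.09 against 0.09, 0.11 and 0.09. The groups did not overlap on any of the 3 chromosomes. Since the chromosomes were picked from the calls of these same libraries, the values describe the pattern and do not test it. The same chromosomes separated the forms in A/J vehicle, NSG YM-155 and NSG vehicle tumours, with differences for chromosome 2 of -0.24, -0.25 and -0.21, and at day 14 of a separate A/J time course, with -0.16. In A/J tumours under an isotype antibody, in another experiment, WGD+ replicate 2 was at 0.13 on chromosome 2, with the WGD- libraries at 0.05, 0.06 and 0.05, while WGD+ replicates 1 and 3 were at -0.13 and -0.15. The share of falls on the 3 chromosomes was 51.5% without the libraries that stand apart and 61.7% by voom. It was 46.7%, 7 of 15 falls, with the 6 libraries fitted alone, and 44.1%, 15 of 34 falls, when these also had the replicate number as a block, the lowest of the alternatives run.

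**Figure D3:**
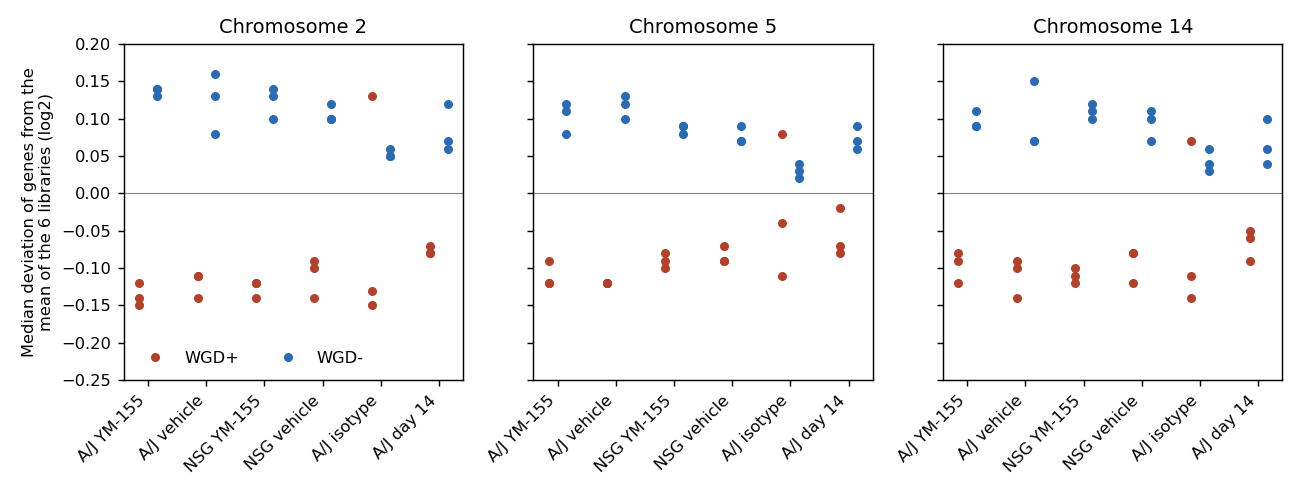
Value of each library for chromosomes 2, 5 and 14 (vertical axis, log2), as the median deviation of their genes from the mean of the 6 libraries of a comparison relative to other chromosomes; WGD+ red, WGD- blue. The WGD+ libraries lie below 0 and the WGD- libraries above 0 except for WGD+ replicate 2 of the isotype group, at 0.13 for chromosome 2.

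Whether YM-155 alters the difference between the forms was asked by testing the WGD change under YM-155 against that under vehicle in A/J mice. Limma called 0 of 13826 genes (0%). Before adjustment 1650 genes had p under 0.05, and voom called 0. In vehicle tumours themselves 1534 genes were called (11.1%). A/J WGD- vehicle replicates 1 and 2 are among the 4 libraries that stand apart. Replicate 2 is also the shallowest library of the experiment, at 3.23 M reads, so the vehicle calls rest on an uneven group. The genes called under YM-155 had the same direction under vehicle in 218 of 234 cases, against 61.1% of all genes tested, and 116 were called there too, which is 49.6% of the YM-155 calls and 7.56% of the vehicle calls. Slc7a11 differed between forms by 1.72 under YM-155 and 2.95 under vehicle, a difference of -1.23 (adjusted p = 0.293). Plcl2 differed by 1.35 and -0.11 (difference 1.46, adjusted p = 0.273), and Rbpjl by -2.51 and -1.20 (difference -1.31, adjusted p = 0.321). Leaving out A/J WGD- vehicle replicate 3 gave 199 calls for this difference, 141 with a more positive WGD change under YM-155 and 58 with a more negative one.

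The host was compared in the same way, as the WGD change in A/J against that in NSG mice under YM-155. Limma again called 0 of 13826 genes (0%). Before adjustment 1058 genes had p under 0.05, and voom called 0. In NSG YM-155 tumours 219 genes were called (1.58%) and in NSG vehicle tumours 394 (2.85%). Of the 234 genes called in A/J YM-155 tumours, 215 had the same direction in NSG YM-155 tumours, against 59.1% of all genes, and 63 were called there, 26.9% of the A/J calls and 28.8% of the NSG calls. Stra6 differed by 1.95 in A/J and 3.23 in NSG tumours under YM-155 (difference -1.27, adjusted p = 0.67), and Itga7 by -2.79 and -2.97 (adjusted p = 0.968). The YM-155 and vehicle comparisons share no library, but one estimate of the spread.

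In all 4 comparisons of the experiment 43 genes were called with one direction, 9 higher and 34 lower in WGD+. The higher ones include Slc7a11, Mfge8, Stra6, Prodh, A530065N20Rik and the phosphodiesterase gene Pde2a, which rose by 0.88 here (limma adjusted p = 0.0207). The lower ones include Lpar3, Pappa, Matn4, Itga7, Sp6, Rbpjl, Crabp2, Spint1 and Slc16a3. Of the 24 named genes, all 12 that fell had the same sign in the 3 other comparisons. Of the 12 that rose, Plcl2 was at -0.11 in A/J vehicle and Acsbg1 at -0.36 in NSG vehicle tumours, and the others had the same sign in all 4.

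**Figure D4:**
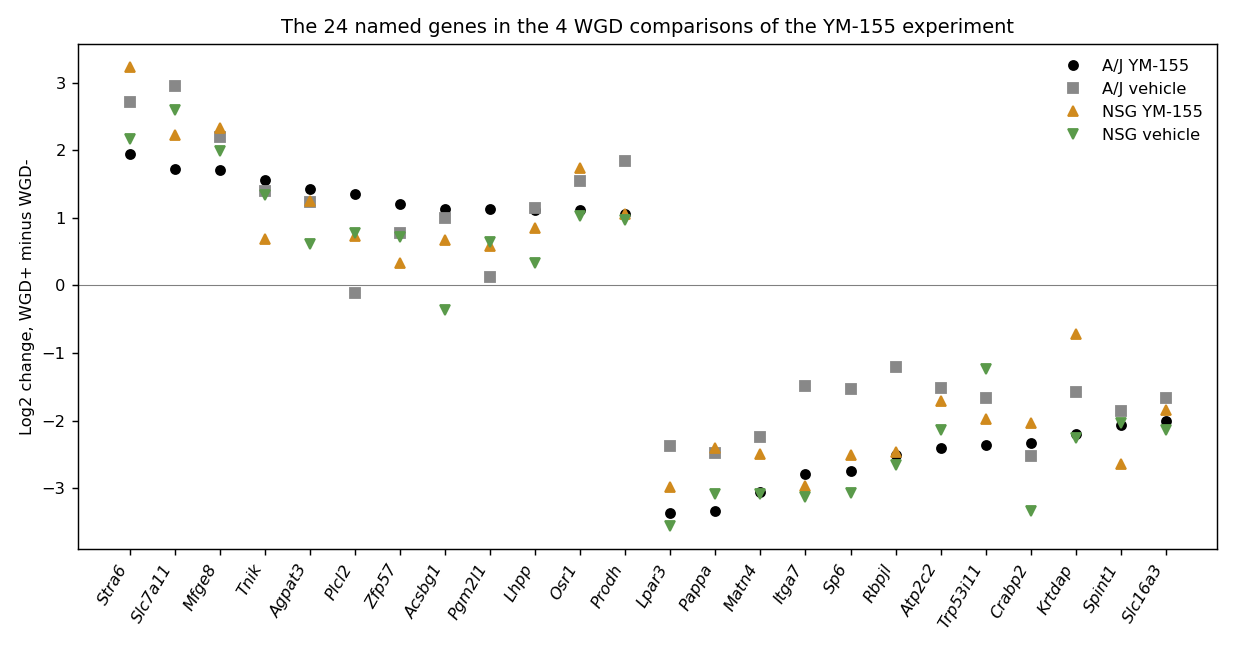
Log2 change between WGD+ and WGD- tumours of the 12 named genes that rose and the 12 that fell in A/J YM-155 tumours (black), beside the same change in A/J vehicle, NSG YM-155 and NSG vehicle tumours. All 12 falls lie below 0 in all 4 comparisons; Plcl2 in A/J vehicle and Acsbg1 in NSG vehicle tumours lie below 0 among the rises.

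Genes that separate the forms without the drug were then followed under it. Of 159 genes called the same way in A/J vehicle and NSG vehicle tumours, 75 were called under YM-155 in A/J mice. Of the 46 that were higher in WGD+ in both vehicle comparisons, 14 were called higher (30.4%), 44 had a positive change, and the median was 0.59, beside 0.84 in A/J and 0.80 in NSG vehicle tumours. Of the 113 lower ones, 61 were called lower (54%), 113 had a negative change, and the median was -0.85, beside -1.02 in A/J and -1.10 in NSG vehicle tumours. The genes were chosen by their vehicle values, which favours larger vehicle medians. The smaller medians under YM-155 therefore do not measure an effect of the drug. A/J WGD- vehicle replicates 1 and 2, on which the choice partly rests, stand apart from the other libraries. Over all 13826 genes tested under YM-155 in A/J mice, 0.362% were called higher and 1.33% lower. Of all these genes 6654 had a positive and 7169 a negative change. Among the 6 with the largest vehicle change each way, 10 were called here. The exceptions were the keratin gene Krt23 (1.40, limma adjusted p = 0.083) and Dynap, a membrane protein gene (-1.83, adjusted p = 0.0514). Without WGD- replicate 2 the count of 75 became 46.

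Libraries of other experiments were fitted in their own tables. Under the isotype antibody 152 genes were called (1.1%), and of 231 genes called under YM-155 and tested there 189 had the same direction, against 55.4% of all genes. Of these 231, 22 were also called there in the same direction (9.52%). Without WGD+ isotype replicate 2, 66 genes were called, and 213 of 231 had the same direction, against 59.4% of all genes. This library was picked by its values, since it lay with WGD- tumours on chromosomes 2, 5 and 14. Those chromosomes hold 110 of the 184 falls called under YM-155, so leaving the library out favours a shared direction. The 213 is therefore no separate test, and the fit kept 2 WGD+ libraries. At day 14 of the time course 60 genes were called (0.445%), and 189 of 231 had the same direction, against 54.6% of all genes. Of these 231, 2 were also called at day 14 in the same direction (0.866%). With isotype replicate 2 kept, 0 genes were called in all 6 WGD comparisons. Levels were not compared across the tables, which were scaled apart.

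Birc5 (chr11:117849251-117855743), which YM-155 is described as suppressing, was at 7.25, 7.18 and 7.08 in WGD+ and at 7.10, 6.54 and 7.12 in WGD- tumours. The groups overlapped and the change of 0.25 did not pass (SE 0.18, limma adjusted p = 0.59). Slc35f2 (chr9:53771538-53818154), a membrane transporter known in human cells to import YM-155, was low in both, at 1.92, 1.35 and 2.49 in WGD+ against 1.49, 1.36 and 1.98 in WGD- tumours (0.31, adjusted p = 0.774). The drug efflux pump gene Abcb1a was at 1.30, 2.44 and 1.87 in WGD+ against 1.21, 0.96 and 1.14 in WGD- tumours (0.77, adjusted p = 0.301). Mitosis genes did not pass in any of 20 cases, with a median of 0.06, where 1.69% of all genes tested were called. The proliferation marker gene Mki67 was at 8.98, 8.46 and 8.84 in WGD+ against 8.11, 8.18 and 8.59 in WGD- tumours (0.47, adjusted p = 0.156), and the checkpoint kinase gene Bub1, on chromosome 2, differed by -0.46 (adjusted p = 0.153). In A/J vehicle tumours, where 11.1% of all genes were called, 11 of these 20 genes were called and the median was 0.51, but none of the 20 passed the test of the difference (smallest adjusted p = 0.273). DNA replication, centrosome and apoptosis lists had 0 calls in 18, 10 and 16 genes, with medians of 0.07, 0.16 and 0.06, and the nearest was the replication clamp gene Pcna, on chromosome 2 (-0.61, adjusted p = 0.0527).

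Interferon-gamma response and MHC genes were highest in replicate 2 of either group. The mean level of 16 interferon-gamma response genes was 2.30, 4.67 and 2.67 in WGD+ and 2.53, 6.07 and 3.31 in WGD- tumours. Cxcl9, a chemokine that draws T cells and is named after its values were seen, was at 0.20, 4.53 and 0.88 in WGD+ against 0.73, 5.59 and 3.24 in WGD- tumours. All 16 genes had a change below 0, with a median of -0.75, and none passed; the nearest was the nitric oxide synthase gene Nos2 (-1.49, limma adjusted p = 0.264). Of 12 MHC class I genes all were below 0, with a median of -0.47 and 0 calls, and of 8 MHC class II genes 7, with a median of -0.33 and 0 calls. Type I interferon genes had 0 calls of 21 and a median of -0.15. The share called over all genes tested was 1.69%. Of 9 tested cytotoxic lymphocyte genes, all below 0 with a median of -0.41, none passed, and the summed level of their 5 defining markers was 0, 4.44 and 0.42 CPM in WGD+ and 1.31, 16.5 and 0.94 CPM in WGD- tumours. In bulk tumours, fewer cells of a type and less RNA per cell cannot be told apart.

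**Figure D5:**
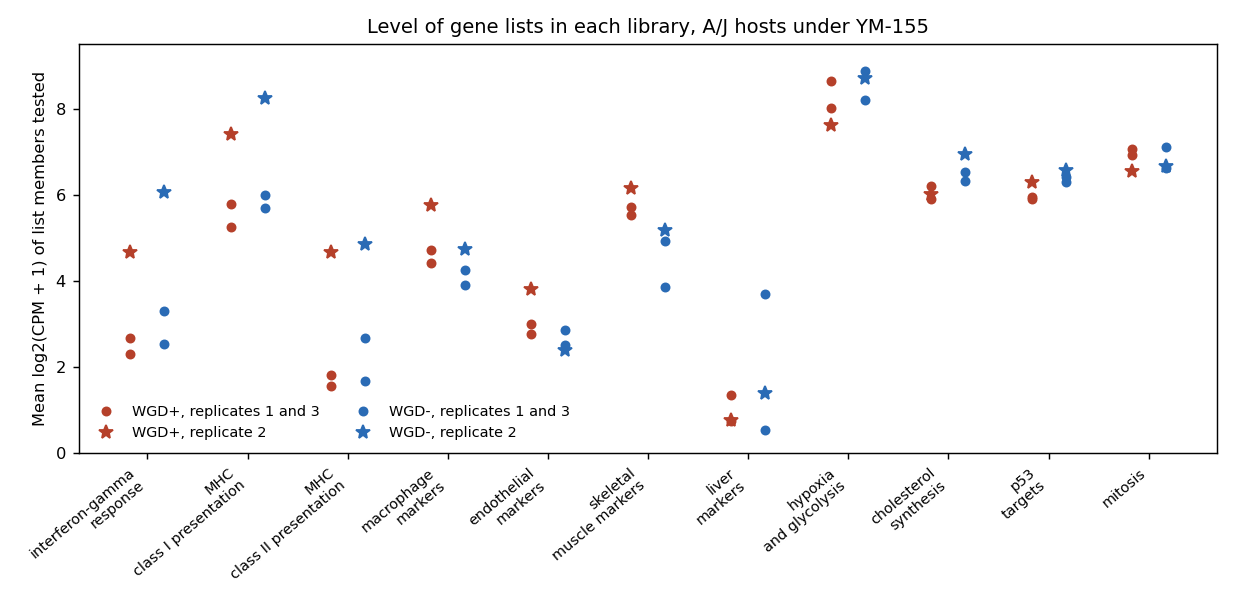
Mean level of the tested members of 11 gene lists in each library (vertical axis, log2(CPM + 1)); WGD+ red, left of each pair, WGD- blue; stars are replicate 2 of either group. Replicate 2 is the highest library of either group for the interferon-gamma, MHC class I and class II lists, and the WGD+ libraries lie above the WGD- libraries for skeletal muscle markers.

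Markers of host tissue differed between libraries, and no gene of the skeletal muscle, endothelial, macrophage, fibroblast or liver list passed the test. The share that passed over all genes tested was 1.69%. All 10 skeletal muscle genes were higher in WGD+ tumours, as were 6654 of all 13826 genes tested, and their median was 1.15. In 8 the groups did not overlap, against 16.9% of all genes tested. None passed, and the nearest was the myosin gene Myh4 (1.52, limma adjusted p = 0.13). The list's median was 0.87 in A/J vehicle and -0.46 in NSG YM-155 tumours. The sum of the 4 defining muscle markers was 481, 703 and 445 CPM in WGD+ and 252, 303 and 105 CPM in WGD- tumours. Endothelial genes were higher in 8 of 9, with a median of 0.66, and macrophage genes in 14 of 15, with a median of 0.55, with 0 calls each. The nearest were the endothelial mucin gene Emcn (1.03, adjusted p = 0.0932) and the secreted phosphoprotein gene Spp1 (1.52, adjusted p = 0.087), which tumour cells can express too. Liver transcripts were highest in WGD- replicate 1, where albumin (Alb) was at 6.35, against 1.46, 1.35 and 3.10 in WGD+ tumours and 3.66 and 1.05 in the other WGD- tumours. The 4 defining dendritic cell markers, Flt3, Xcr1, Clec9a and Cd209a, were at or below 1 CPM in each of the 6 libraries. Other members of the dendritic cell list lay above that, with Batf3 up to 3.09 in WGD+ replicate 2 and Itgax up to 4.13 in WGD- replicate 2, and none passed. The part of these tissues in the changes described above was not tested.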

How the data were processed

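RNA of whole tumours was sequenced from stranded libraries, per the labels' protocols. The submitters' processing notes name STAR 2.5.1b, edgeR and mm10. The annotation, the counting tool and its strand setting were not given in the sources used here. The authors deposited log2 values, log2(CPM + 1) scaled by trimmed mean of M values, in 3 tables normalized separately. Turned back into reads, 100% of the values checked came out whole to within 0.1 read, which gave the depth. In the YM-155 table, 27 symbols that a spreadsheet had turned into dates were left out, and coordinates are those of GENCODE M21.

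The main test was limma 3.58.1 in R 4.3.3 on the deposited log2 values of 24 libraries, with a mean for each of 8 groups and trended, robust empirical Bayes, so the comparison shares the spread of all groups. The test covered genes that passed 1 CPM in 3 or more libraries. P-values were adjusted by Benjamini-Hochberg over all of them, and calls are those with an adjusted p under 0.05. Isotype and day 14 libraries were fitted in their own tables. The fit was tested on simulated counts with the same spread for every gene and no library that stands apart. That test does not cover the uneven spread of these libraries.

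The text names Birc5 and Slc35f2, up to 12 called genes each way with the largest changes, groups that do not overlap and a higher group mean of at least 3, leaving out gene models (Gm, Rik, BC and AA names) and antigen receptor segments, up to 4 called members of each of 36 lists or else up to 2 of smallest p, and 6 vehicle genes each way; others are marked as chosen after their values were seen. The members, lists and tests were chosen with earlier results of these data known. Alternatives were other filters and scalings, voom on recovered reads, other sets of libraries, a replicate block and leaving out single libraries.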

Additional observations from a re-analysis of the deposited data

How the results depend on the processing

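The number of calls depended on the processing. Over 510 combinations of a called named gene and an alternative, 370 kept their call, 140 lost it and 0 changed sign. The groups of these genes do not overlap, so leaving out libraries could not change a sign. Most of the other alternatives use the same group means, so the 0 is no test of their direction. The 234 calls (50 higher and 184 lower in WGD+) became 20 (5 and 15) with only the 6 libraries compared, 34 (6 and 28) with the 12 A/J libraries and 357 (91 and 266) without the libraries that stand apart, an alternative added after seeing the data. With no filter on low values 32 genes were higher. Leaving out single libraries gave 79 to 425 calls, 13 to 116 of them higher and 66 to 309 lower. Quantile scaling gave 186 calls, 72.6% of them lower, against 78.6%. The difference between YM-155 and vehicle gave 0 to 199 calls with single libraries left out, 0 to 141 more positive and 0 to 58 more negative, and that between hosts 0 to 1, all more negative. The host difference gave 3 calls without the libraries that stand apart, all more negative. The 75 vehicle genes called became 13 with the 6 libraries, 27 with the 12 A/J libraries, and 46 to 74 with single libraries left out. The cause was not tested.

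Whether replicate numbers pair the libraries is not settled by these values. Same-numbered libraries had correlations of -0.0189, 0.208 and 0.161 for replicates 1, 2 and 3. WGD+ replicates 2 and 3 correlated best with their own number, and WGD+ replicate 1 with WGD- replicate 3 (0.232). With the replicate number as a block, the 6 libraries gave 47 calls (13 higher and 34 lower) and 28 vehicle genes, and the 24 libraries gave 245 calls and 2 for the host difference, both more negative. Medians of chromosomes 2, 5 and 14 moved beyond their spread in 14 of 51 cases and changed sign in 0. At 3 libraries a group and 5.11 to 7.75 M reads, levels under 1 CPM rest on few reads.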

Other observations

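Some further called genes were picked because they had fallen, so they stand for no group of genes. The keratin and epithelial list had 0 calls of 12, where 1.69% of all genes tested were called. It had 4 changes above 0 and 8 below. The transglutaminase gene Tgm1 was at 1.86, 2.72 and 2.21 in WGD+ and at 4.01, 4.40 and 3.77 in WGD- tumours (-1.79, limma adjusted p = 0.00261). Areg, a ligand of the EGF receptor, was at 4.67, 4.80 and 4.13 in WGD+ against 6.20, 6.53 and 6.32 in WGD- tumours (-1.82, adjusted p = 0.00036). Both calls held with each of the 6 libraries left out. The keratin gene Krt17 fell by 1.60 (adjusted p = 0.0147), Dmkn, which lies beside Krtdap, by 1.69 (adjusted p = 0.0385) and the galectin gene Lgals3 by 1.53 (adjusted p = 0.0233), with calls that held in 4, 2 and 2 of 6 leave-outs.

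Fdps, which makes the farnesyl chain and is picked in the same way, was at 6.97, 7.11 and 6.72 in WGD+ against 7.80, 8.20 and 7.47 in WGD- tumours (-0.89, limma adjusted p = 0.0182). Por, the electron donor of cytochrome P450 enzymes, fell by 0.88 (adjusted p = 0.0182) and the desaturase gene Scd1 by 1.05 (adjusted p = 0.0261). The calls of Fdps, Por and Scd1 held in 4, 3 and 2 of 6 leave-outs.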
